A study of Mus musculus with 10 samples.

Results

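Late-numbered mouse miRNA probes whose sequence is rich in A and C were followed on 10 one-colour microarrays, 5 hybridised with RNA from samples titled T-C cell and 5 with RNA from samples titled control cell. The probes were chosen by a rule on name and sequence, set with earlier results of these data known. Their names lie between miR-1000 and miR-6895 or above miR-7094, leaving out miR-1193 and miR-1197, A and C make up at least 60% of the target sequence, and G and C make up less than 70% of it. This gave 82 of the 1892 miRNA probes of the array, each printed as 2 spots. The array design gives 42 of them as 3p arms and 16 as 5p arms, and 24 carry no arm in their name. According to the labels, all RNA came from male mice and is described as sle liver, with a culture protocol for mouse liver cells, TN-CF at 0.5 mg on each dish of 100000 T-C cells over 24 hours, and a control. The source label reads Col-/- (or Col -/-) for the T-C cell group and Control Col for the control cell group, so treatment and source cannot be told apart. The meaning of T-C, TN-CF (TB-CF in the design text), Col and sle, the age of the animals, and whether replicates were different animals or cultures was not given in the sources used here. The p-values therefore reflect only how these samples spread, and that spread may be technical. Below, a value after ± is the SD over the 5 arrays of a group, and replicates are listed in the order 1 to 5.

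A mature miRNA guides the silencing complex to messenger RNAs, mainly through its seed, the bases at positions 2 to 8 from the 5′ end, and lowers their translation and stability. Numbers in miRNA names follow the order of their discovery. Entries with low numbers are largely conserved and abundant miRNAs found by cloning, whereas most entries with high numbers came from deep sequencing, are often weakly expressed, and have few known targets. A strand made mainly of A and C has few partners for pairing within itself, and its array probe, the complementary strand, is rich in T and G.

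The sequences below belong to the 9 A/C-rich late-numbered miRNAs that passed the test between the groups. They are shown because the results turn on them, 5′ to 3′ as deposited, with the seed in capitals.
miR-7658-3p: aCCACCUUccucacccacgcu
miR-7674-3p: uCCCAUUCucaccgcacccag
miR-3968: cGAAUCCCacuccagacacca
miR-1894-5p: cUCUCCCCuaccaccugccucu
miR-7679-3p: cAGGAUCCcaggguaccaaccagc
miR-6412: uCGAAACCauccucagcuacua
miR-7211-5p: uCUUUCCCucugccacuccacc
miR-7673-3p: uUCCUUACcucaccgucaaagga
miR-3547-3p: uGAGCACCaccccucucucag
No seed was shared between any of the 82 miRNAs, so they form no seed family. Of those tested, 3 had the seed of a probe outside the set: miR-7679-3p shared AGGAUCC with miR-8116, miR-6240 shared its seed with miR-330-3p, and miR-3473d shared its seed with miR-674-5p and miR-1947-3p.

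Signal was low for most of the set. Detection on an array required the mean of a miRNA's 2 spots to lie more than 3 SD over the mean of 16 blank spots, and the test required detection on 5 or more of the 10 arrays. This limit ran from 133 to 474 on T-C cell arrays and from 64.0 to 319 on control cell arrays, in units of scanner brightness. Of the 82 miRNAs, 25 were detected on no array, 24 on control cell replicate 5 alone (the array with the lowest blanks, and with 57 of the 82 above its limit), 12 on 2 to 4 arrays and 21 on 5 or more. T-C cell replicate 3, whose blanks had the widest spread, had 1 of the 82 above its limit, and the other 8 arrays had from 16 to 29. The share tested, 25.6%, was close to the 25.2% of all miRNA probes that were tested. Of the 4 miRNAs listed for hepatocytes, miR-192-5p, miR-194-5p and miR-148a-3p were detected on all 10 arrays. The other, miR-122-5p, which dominates hepatocytes, was detected on 1 of 10, with raw intensities from 57.8 to 193. Whether the RNA came from hepatocytes is therefore not settled by these markers. Epithelial (miR-200a-3p, miR-200b-3p, miR-200c-3p, miR-141-3p), smooth muscle (miR-143-3p, miR-145a-5p) and fibroblast (miR-199a-3p, miR-214-3p) miRNAs were also detected on all 10 arrays. The same held for some of the endothelial (miR-126a-3p), muscle (miR-1a-3p, miR-133a-3p), erythroid (miR-451a) and leukocyte (miR-150-5p) miRNAs. Among the markers measured in 9 cell type lists, miR-150-5p, a lymphocyte miRNA, was the only one to pass (log2 difference 0.86, limma adjusted p = 0.0433). The 2 leukocyte markers on the array, miR-150-5p and miR-223-3p, had a summed raw intensity of 1017 to 1509 on control cell arrays, where T-C cell arrays had 1467 to 3730. Their part in the results below was not tested.

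Of the 21 A/C-rich late-numbered miRNAs tested, 9 fell in T-C cell samples, 0 rose and 12 did not pass a limma adjusted p of 0.05. Over all 476 tested miRNAs, 6.30% were called lower and 1.47% higher, or 7.77% in either direction. The 9 that fell were miR-7658-3p, miR-7674-3p, miR-3968, miR-1894-5p, miR-7679-3p, miR-6412, miR-7211-5p, miR-7673-3p and miR-3547-3p. They were between 2.08-fold (miR-6412) and 5.30-fold (miR-7679-3p) lower, computed from log2(intensity + 50) with no background subtracted. The added 50 makes the fold of a weak miRNA too small, and so does the background left in. For miR-6412 the log2 difference was −1.05, and −1.25 with 1 added in place of 50. It was −2.96 with the blank mean subtracted to a floor of 1. In bulk RNA of this kind, fewer cells of a type and less RNA per cell cannot be told apart. At an unadjusted limma p under 0.05, 14 of the 21 were lower and 0 higher, where 12.0% of all tested miRNAs were lower and 6.30% higher. A difference below 0 was seen in 17 of the 21, against 47.1% of all tested miRNAs. The median difference was −1.07 over the 21 tested and −0.03 over all 82, whereas over all tested miRNAs it was 0.02. More control cell than T-C cell arrays detected 19 of the 21, and 1 was detected on more T-C cell arrays; over all tested miRNAs, 32.4% were detected on more control cell arrays. The 19 include miR-6240, miR-7212-3p and miR-1905, whose differences lay above 0, and the limits differed between arrays as given above. A weak miRNA could reach the test through the group where it was brighter, so the counts over tested miRNAs are a description. Among the 16 detected on at least 3 arrays of each group, 8 fell and 14 had a difference below 0. The shares over all miRNAs that meet this stricter limit were not computed, so these counts have nothing to be set against.

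These calls rest on the full set of arrays. The count lower in the set, 9 with all arrays, became 2 without T-C cell replicate 1 and 5 without replicate 2 or 5 of that group. Without replicate 2 the 5 were 4 of the 9 and miR-3100-3p. The count was 0 when the array left out was replicate 4 of the T-C cell group or replicate 1, 2, 3 or 5 of the control cell group. In those 5 fits, in that order, 13, 12, 13, 14 and 12 of the set were lower at an unadjusted limma p under 0.05. The count of calls was 0 with the blank mean subtracted and 0 with all 1892 miRNAs tested (12 and 16 lower at an unadjusted limma p under 0.05). It was 5 with median centring of the arrays. Each of the 9 kept a difference below 0 and an unadjusted limma p under 0.05 in every alternative in which it was tested. The 9 were picked for a small p and the alternatives reuse the same arrays, so this is a description and no support.

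Among the 9, miR-7679-3p was the brightest and had the largest difference. Its raw intensity, the mean of its 2 spots, was 225, 1159, 302, 1606 and 2206 on T-C cell replicates 1 to 5 and 5445, 5216, 5532, 1367 and 6227 on control cell replicates 1 to 5. Control cell replicate 4 thus lay inside the T-C cell range, and the other 4 control cell arrays lay far above it. The log2 level went from 12.07 ± 0.86 to 9.66 ± 1.46, a difference of −2.41 (SE 0.63, 95% interval −3.78 to −1.03, limma adjusted p = 0.0419). Its gene lies at chr11:82985003-82985026 on the minus strand of GRCm38.p6, in an intron of Slfn9, a member of the Schlafen family of growth-regulatory and interferon-inducible genes.

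miR-7658-3p had the smallest p of the set. On T-C cell replicates 1 to 5 its raw intensity was 149, 279.6, 436, 372 and 395, and on control cell replicates 1 to 5 it was 1872, 2099, 1131, 488 and 1334. Again 4 of the 5 control cell arrays stood clear of all T-C cell arrays and control cell replicate 4 stood just above the highest of them before normalization. After normalization the groups overlapped, and 4 of 5 T-C cell samples lay below all control cell samples. The log2 difference was −1.95 (SE 0.45, 3.87-fold lower, 95% interval 1.97 to 7.59, limma adjusted p = 0.0400), from 10.41 ± 0.82 to 8.46 ± 0.83. Its sequence, at chr4:156230059-156230079 on the minus strand, overlaps coding sequence of Plekhn1 on the same strand.

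After normalization the groups stood apart with no overlap for 3 of the 9, miR-7674-3p, miR-3968 and miR-1894-5p, and for miR-1839-3p, which did not pass; over all tested miRNAs 1.89% had T-C cell samples entirely below control cell samples. miR-3968 had raw intensities of 200.1, 342, 371, 478 and 473 on T-C cell arrays and 1233, 1324, 985, 546 and 1120.4 on control cell arrays, in order of replicate. Its log2 level fell by 1.46 (SE 0.35, limma adjusted p = 0.0400). miR-3968 lies at chr11:115447969-115447989 on the minus strand, opposite coding sequence of Trim80, a gene of the tripartite motif family. For miR-7674-3p the raw values were 241, 212, 279, 219 and 213 on T-C cell arrays, below the 652, 796, 389, 296 and 473 on control cell arrays. Its T-C cell values stayed within a narrow range near the detection limit, and the log2 difference was −1.10 (SE 0.26, 2.14-fold lower, limma adjusted p = 0.0400). The miRNA lies at chr2:32050988-32051008, in an exon of a transcript of Nup214, which encodes a nuclear pore protein, and opposite the genes Fam78a and Gm16534. miR-1894-5p gave 66.9, 227, 329, 254 and 316 on T-C cell arrays, below the 1036, 1229, 813, 372 and 482 on control cell arrays. Its 2 spots disagreed most on T-C cell replicate 3, at 439 and 218. The log2 difference was −1.67 (SE 0.44, 3.18-fold lower, limma adjusted p = 0.0419), and its site, chr17:35917899-35917920, lies in an exon of Ppp1r10, a regulatory subunit of protein phosphatase 1.

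For miR-7211-5p, the only one of the 82 detected on all 10 arrays, raw intensities were 585, 446, 684, 604 and 681 on T-C cell arrays, against 3084, 2656, 1482, 609.6 and 1279 on control cell arrays. T-C cell arrays varied little, and control cell replicate 4 sat among them. It was 2.69-fold lower (95% interval 1.51 to 4.79, limma adjusted p = 0.0433). The gene, at chr10:94586178-94586199 on the minus strand, lies in an intron of the antisense transcript Tmcc3os and opposite an intron of Tmcc3.

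The other 3 that fell were weak in T-C cell samples, where most values lay near the detection limit. The raw intensity of miR-7673-3p was 209 ± 83.6 with T-C cell RNA, against 533 ± 199.7 with control cell RNA (log2 difference −1.30, SE 0.36, limma adjusted p = 0.0466). It overlaps an untranslated region of Klhl15, an adaptor for a cullin ubiquitin ligase, at chrX:94274615-94274637. miR-6412 had 200.1 ± 50.2 against 419 ± 117 (log2 difference −1.05, SE 0.28, limma adjusted p = 0.0419) and lies outside other annotated genes at chr10:122648412-122648433. miR-3547-3p had 197 ± 92.0 against 418 ± 187 (log2 difference −1.09, SE 0.30, limma adjusted p = 0.0496) and lies in an intron of Baiap3, at chr17:25245551-25245571 on the minus strand. It was detected on 5 control cell arrays and 1 T-C cell array, so it reached the test through the control cell group. In all 3 the normalized ranges of the groups overlapped through control cell replicate 4 alone. In raw intensity miR-3547-3p also overlapped through control cell replicate 5, at 322 against 331 on T-C cell replicate 3.

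After normalization the arrays were ordered alike for the 9. Each of the 9 had its lowest normalized level of all 10 arrays on T-C cell replicate 1 and its lowest control cell level on control cell replicate 4; over all 476 tested miRNAs those shares were 29.6% and 20.4%. In raw intensity miR-7674-3p was lower on T-C cell replicates 2, 4 and 5 than on T-C cell replicate 1. miR-7211-5p was lower on T-C cell replicate 2 than on T-C cell replicate 1. After normalization the overlap of the groups came through control cell replicate 4 alone for 6 of the 9. Their median log2 level was 7.13, 8.54, 8.67, 8.01 and 8.55 on T-C cell replicates 1 to 5 and 10.28, 10.39, 9.71, 8.80 and 9.64 on control cell replicates 1 to 5. On T-C cell replicate 1 the 7.13 lay below the normalized median of all miRNA probes, 7.64. In raw intensity the 9 had a median of 149 on that array, above the 93.8 of all miRNA spots. Normalization thus placed the 9 under the typical probe there, so these low levels are not to be read as amounts. As these 9 were picked by the test, the values describe how the arrays differ within each group and support nothing. T-C cell replicate 1 also stood apart on the first principal component of all tested miRNAs, at −15.8 against −5.10 to −1.34 for the other T-C cell arrays and 1.63 to 8.05 for the control cell arrays, control cell replicate 4 having the 1.63. Without T-C cell replicate 1 the tested A/C-rich set had a median difference of −0.96, and leaving out control cell replicate 4 instead gave −1.26. In that last fit 10 of the set were lower and the adjusted p of the 9 (limma) ran from 0.00587 to 0.0164.

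Of the 12 that did not pass, 8 had a difference below 0. miR-3064-3p came closest, with raw intensities of 557, 484, 394, 447 and 312 on T-C cell arrays, against 1766, 887, 1174, 425 and 3155 on control cell arrays. Its control cell values spread widely, from within to far above the T-C cell range, and the log2 difference was −1.48 (SE 0.43, limma adjusted p = 0.0536). It passed with quantile normalization, with array weights, with detection required on at least 8 arrays and without control cell replicate 4 (limma adjusted p = 0.0350, 0.0355, 0.0433 and 0.00641). It overlaps an untranslated region of Ddx5, an RNA helicase that takes part in miRNA processing, at chr11:106782695-106782716 on the minus strand. miR-1839-3p gave 294, 308, 213, 438 and 412 on T-C cell arrays, against 723, 417, 645, 443 and 1624 on control cell arrays. These raw ranges overlapped and the normalized ones did not (log2 difference −1.07, SE 0.35, limma adjusted p = 0.0932). miR-7224-3p, the second brightest of the set, differed by −1.41 (SE 0.55, limma adjusted p = 0.161), with a wide interval of −2.61 to −0.22. On control cell replicate 1 its 2 spots read 2307 and 205, an 11.3-fold disagreement, which limits that value. miR-7224-3p passed with the replicate number as a block (limma adjusted p = 0.0493), and array weights gave a difference of −0.75 (limma adjusted p = 0.550).

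Smaller differences were measured for miR-3100-3p (−0.51, SE 0.19, limma adjusted p = 0.149), which lies in an intron of the myotonic dystrophy kinase gene Dmpk, and for miR-5622-5p (−0.46, SE 0.20, limma adjusted p = 0.233), which lies in an intron of Tpx2, a spindle assembly factor. miR-3100-3p passed without T-C cell replicate 2 (limma adjusted p = 0.0112), the array on which it read 332 against 199 to 262 on the other T-C cell arrays. miR-7669-5p, in an intron of Ubap2l, differed by −0.25 (SE 0.17, limma adjusted p = 0.557). For the remaining one, miR-1224-3p, the difference was −0.12 (limma adjusted p = 0.539). miR-7116-5p, in an intron of Acly, the enzyme that makes cytosolic acetyl-CoA for lipid synthesis, varied more within T-C cell samples (raw 215 to 1771) than between groups, with a log2 difference of −0.64 (95% interval −1.70 to 0.42, limma adjusted p = 0.603). Leaving out T-C cell replicate 5 gave −1.11 (limma adjusted p = 0.0848), leaving out T-C cell replicate 1 gave −0.41, and array weights gave −0.09.

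Differences above 0 were found for 4 of the 21, none of which passed. miR-6240 read 4956 on T-C cell replicate 1 and 220.2, 373, 620.0 and 303 on T-C cell replicates 2 to 5, against 175 to 395 on control cell arrays. Its log2 difference of 0.84 (95% interval −0.35 to 2.03, limma adjusted p = 0.532) thus contained 1 array far above the other 9. miR-3473d had the same pattern, with 894 on T-C cell replicate 1, 177 to 297 on the other T-C cell arrays and 128 to 275 on control cell arrays (log2 difference 0.29, SE 0.30, limma adjusted p = 0.701). T-C cell replicate 1, where each of the 9 that fell had its lowest normalized level, had the highest level of miR-6240 and miR-3473d. miR-7212-3p differed by 0.13 (95% interval −0.30 to 0.56) and miR-1905 by 0.01 (95% interval −0.33 to 0.35), with limma adjusted p of 0.809 and 0.987.

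The set was defined by a share of A and C, so the difference was followed along that share over the 602 late-numbered probes with less than 70% G and C, detected or not. Median differences were 0.02, 0.01 and −0.01 for probes with under 40%, 40 to 50% and 50 to 60% A and C, −0.03 for the 65 with 60 to 70%, −0.19 for the 15 with 70 to 80% and −0.72 for the 2 at 80% or more. The medians lay near 0 up to 70% and below 0 in the band of 70 to 80%. The value for the 2 is the midpoint of miR-3968 (−1.46) and of miR-1192, the probe richest in A and C at 86.4%, which was not tested and differed by 0.02. Calls of a decrease were 0 of 24, 0 of 20 and 1 of 23 tested probes in the 3 lower bands and 6 of 14, 2 of 6 and 1 of 1 in the 3 upper ones, and no band held a call of an increase. The share that could be tested also rose along the axis, from 24 of 192 under 40% A and C to 6 of 15 in the band of 70 to 80%. A least-squares line of the log2 level on the share of A and C, drawn on each array, had a slope of −0.04, 0.04, 0.00, −0.00 and 0.01 per 10 percentage points on T-C cell replicates 1 to 5 and of 0.08, 0.08, 0.06, 0.04 and 0.11 on control cell replicates 1 to 5. Slopes averaged 0.07 ± 0.03 on control cell arrays and 0.00 ± 0.03 on T-C cell arrays, and T-C cell replicate 2, at 0.0420, lay above control cell replicate 4, at 0.0402. Within the 82 alone the slope was steeper, 0.22 ± 0.12 against 0.53 ± 0.11, from 0.01 to 0.32 on T-C cell and from 0.39 to 0.69 on control cell arrays, with no overlap. No test was run on these slopes, since the probes were chosen with earlier results known. Across the 82, Spearman's rho between the share of A and C and the difference was −0.32, and between the share of G and C and the difference −0.07. These points share the same arrays and labelling, and most lie near background.

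The 2 tested probes just inside the limit of 60% A and C were miR-7669-5p and miR-7673-3p, both at 60.9%, with differences of −0.25 and −1.30. Just outside it, at 59.1% each, miR-7647-5p differed by −1.44 (8.15 ± 0.81 against 9.59 ± 0.81) and miR-7671-3p by 0.19. The values on either side of the limit thus covered a like range.

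Beside their composition, the miRNAs that fell shared a trinucleotide, ACC. It had been noticed in earlier results of these data, so its counts are a description. ACC, read on the strand of the miRNA, occurs in 40 of the 82 (48.8%) and in 20.5% of all miRNA probes. All 9 that fell hold it, 6 of them in 2 or 3 copies. Of the 40 with ACC, 17 reached the test and 16 of these had a difference below 0, with a median of −1.10. Over all 124 tested miRNA probes with ACC, 28 were called lower and 2 higher, 83 had a difference below 0 and the median was −0.13. Among late-numbered probes with ACC but under 60% A and C, 1 of 9 tested was called lower, with a median of −0.12. Of the 42 without it, 4 reached the test, namely miR-6240, miR-3473d, miR-7212-3p and miR-7116-5p, and they differed by 0.84, 0.29, 0.13 and −0.64. Over all 82, whether tested or not, the median difference was −0.12 with ACC and −0.01 without. The median log2 level of the 40 was 7.84 ± 0.04 on control cell arrays and 7.74 ± 0.09 on T-C cell arrays, and that of the 42 was 7.61 ± 0.01 and 7.61 ± 0.03. The share tested was 42.5% with ACC and 9.52% without, against 32.0% and 23.4% of all miRNA probes. By copy number, the median was −1.24 for the 6 tested miRNAs with 1 copy (3 called) and −1.10 for the 11 with 2 or more. Across the 82, Spearman's rho with the difference was −0.45 for copies of ACC and −0.32 for the share of A and C. Over the 602 late-numbered probes with less than 70% G and C, these were −0.16 and −0.28. Other short strings, also read on the miRNA strand and free to overlap ACC, were counted for comparison. CAC was found in 50 of the 82, and the medians of tested miRNAs with and without it were −1.09 and −1.06. For CCC, found in 48, they were −1.09 and −1.05. Of the 9 that fell, 7 hold CAC and 7 hold CCC. Over all 164 tested miRNA probes with CAC, 27 were called lower and 0 higher, 106 had a difference below 0 and the median was −0.13. Over all 104 with CCC, 12 were called lower and 1 higher, and the median was 0.00. ACA was found in 43, with medians of −0.57 and −1.10, and CACA in 22, with −0.46 and −1.09; 1 of the 9 that fell holds ACA and 0 hold CACA. Among all miRNA probes these strings occur in 27.2% (CAC), 23.0% (CCC), 28.5% (ACA) and 11.7% (CACA).

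The place of ACC differed between those that fell, as these examples with ACC in capitals show, from an early, a central and a late position.
miR-7658-3p: ACCACCuuccucACCcacgcu
miR-3547-3p: ugagcACCACCccucucucag
miR-1894-5p: cucuccccuACCACCugccucu
miR-7679-3p: caggaucccaggguACCaACCagc
miR-7211-5p: ucuuucccucugccacuccACC
For contrast, miR-6240 and miR-7116-5p meet the limit on A and C without ACC, the second with a run of A at its 3′ end.
miR-6240: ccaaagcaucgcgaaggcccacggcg
miR-7116-5p: ugaagacaucaggaaaaaaaa
ACC was also held by miRNAs with small differences: miR-1905 and miR-7669-5p hold 2 copies each and differed by 0.01 and −0.25.
miR-1905: cACCagucccACCacgcgguag
miR-7669-5p: aguACCACCauacacagcuuuug
Starts of ACC in the 9 ran from base 1 (miR-7658-3p) to base 20 (miR-7211-5p), counted from the 5′ end, so it lay in the seed of some and at the 3′ end of others.

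Probes outside the set but with the same share of A and C and the same limit on G and C gave counts in the same direction. Of 91 such tested probes, 15 were called lower and 0 higher (22 lower and 1 higher at an unadjusted limma p under 0.05), 13 of the 15 holding ACC. That count was 5 after leaving out T-C cell replicate 1, 8 after T-C cell replicate 3, and 0 after replicate 4 of the T-C cell group or replicate 1, 2, 3 or 5 of the control cell group. Among the 20 of these numbered miR-6896 to miR-7094, 7 were called lower, and among the 71 with other numbers 8 were. Of the 364 tested probes with less A and C or more G and C, 6 were called lower and 7 higher. Median differences were −0.28 for the 20, −0.05 for the 71 and 0.06 for the 364, beside −1.07 for the 21 of the set. Late-numbered probes with under 60% A and C, which share the numbering but not the composition, had 1 call of a decrease and 0 of an increase among 67 tested, with a median of 0.05. The order of arrays was shared in part: T-C cell replicate 1 was the lowest array for 8 of the 15 and control cell replicate 4 the lowest control cell array for 12. None of these differences between sets was tested, so nothing is called particular to the late-numbered probes.

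The 61 members of the set that were not tested lay close to background on both sides. Their median log2 level was 7.61 ± 0.02 on control cell arrays and 7.60 ± 0.04 on T-C cell arrays. Differences ran from −0.41 (miR-7650-5p) to 0.11 (miR-5127), 37 below and 24 above 0, and none reached 1 in size. The main fit did not test these miRNAs, and signal this close to background limits what could be seen in them. With all 1892 miRNAs tested, 0 of the 82 were called. In that fit 16 of the 82 were lower at an unadjusted limma p under 0.05, where the main fit had 14 of the 21.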

How the data were processed

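Per the file headers, each of the 10 deposited files gives the median intensity of every spot, in linear units of brightness, as deposited by the authors with no step between arrays recorded. The second intensity column is empty in all 10. Per the labels, 1 µg of Trizol-extracted total RNA was given a poly(A) tail and a tag for Cy3 staining by LC Sciences. Information on the scanner, software and miRBase release was not given in the sources used here. Headers number the arrays, but what they number is not given, so no batch was drawn from them.

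Each intensity was converted to log2(intensity + 50), the 2 spots were averaged, and cyclic loess was used for normalization. The package limma 3.58.1 (R 4.3.3; lmFit, eBayes with trend, two-sided) compared the groups over 476 tested miRNAs, with Benjamini-Hochberg adjustment and a threshold of 0.05. A difference below 0 means a lower level with T-C cell RNA, and intervals are 95% intervals from limma. Counts and medians over sets carry no test. The 82 miRNAs, the bands, motifs and marker lists were chosen with earlier results of these data known. The rule named the 14 tested miRNAs with the smallest p, the 6 brightest, the 4 with the highest differences, and the 2 probes on each side of the limit on A and C; miR-1192, miR-1224-3p, miR-7650-5p and miR-5127 were named after their values were seen. Sequences and positions come from the deposited target sequences and RefSeq (GRCm38.p6), matched by name and sequence for 17 of the 20 named and 71 of the 82 miRNAs, and overlapping genes from GENCODE M21 on the same build. On simulated data for this comparison (10 runs over 476 miRNAs), limma called 92.0% of those lowered 2-fold, 98.6% of those lowered 4-fold and 1.88% of those unchanged. Each run changed 200 of the 476, drew every value independently and had no normalization step or difference shared within an array. These shares therefore need not hold for the measured arrays. Python 3.11.15, pandas 2.3.3, numpy 2.4.6 and scipy 1.17.1 were also used. Precision is limited by the 5 arrays a group.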

Additional observations from a re-analysis of the deposited data

Results flagged for a closer look

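With 5 arrays per group, an array was singled out where its gap to the nearest other array of its group exceeded 0.71 of the group's range, a limit that chance passes in about 1 of 20 groups; 48 groups of values were examined and 6 passed. Levels of miRNAs were taken after normalization. T-C cell replicate 1 was low for miR-3968 (log2 level 7.41, next 8.77, gap ratio 0.801) and high for miR-6240 (11.83, next 9.15, gap ratio 0.782) and miR-3473d (9.73, next 8.17, gap ratio 0.832). In raw intensity miR-3968 read 200.1 on that array, above its limit of 133, and 342 to 478 on the other T-C cell arrays. Control cell replicate 4 was low for miR-7679-3p (10.54, next 12.34, gap ratio 0.868). T-C cell replicate 2 was high for miR-3100-3p (8.91, next 8.05, gap ratio 0.786). T-C cell replicate 3 had 1 A/C-rich late-numbered miRNA above its detection limit, where the next T-C cell array had 18 (gap ratio 0.773); its limit was also the highest, at 474.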

How the results depend on the processing

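Across the alternatives, the 9 decreases never changed sign. As the 9 were picked on these same arrays, this describes the fits and is no support. Over all named miRNAs, 325 of 443 values kept their direction and side of the threshold, 106 lost the call, 6 gained it and 6 reversed. The cause of these changes was not tested, except that fewer arrays or more miRNAs tested are part of the setting itself. With the blank mean subtracted to a floor of 1, the calls were 0 lower in the set, 0 among the other A/C-rich probes, and 1 lower and 2 higher over all miRNAs, with medians of −2.06 (tested) and −0.42 (all 82), a slope difference of −0.18 and −0.99 for 70% A and C and above. With all miRNAs tested these were 0, 0, 1 and 0, with a median of −0.030. Median centring gave 5, 4, 13 and 1. Quantile normalization gave 14 higher over all miRNAs, and no normalization gave 3, a median of 0.058 over all 82 and −0.022 for 70% and above. Without both T-C cell replicates 1 and 3, chosen after seeing the data, they were 0, 0, 1 and 0, with 10 of the set lower at an unadjusted limma p under 0.05. Leaving out single arrays gave from 0 to 10 lower in the set, 0 to 18 among the other A/C-rich probes, and 1 to 36 lower and 0 to 8 higher over all miRNAs. The medians then ran from −1.26 to −0.96 (tested), −0.05 to −0.03 (all 82) and −0.26 to −0.11 (70% and above), and the slope difference from −0.08 to −0.06. A limit of 55% A and C moved the median of tested miRNAs to −0.64, and a limit of 65% that of all to −0.084. With the replicate number as a block, 3 of the set were lower (miR-7658-3p and miR-7674-3p of the 9, and miR-7224-3p), and over all miRNAs 18 were lower and 4 higher. Deviations of same-numbered arrays correlated between −0.20 and 0.26. These 5 values cannot tell whether same-numbered samples were paired, which the sources used here do not give. miR-1905 reversed with 200 added (−0.0072), with spots averaged before the logarithm (−0.0075) and with array weights (−0.010), and ran from −0.024 to 0.071 as single arrays were left out, where it reversed for replicate 3 of either group. miR-7212-3p ran from −0.0027 to 0.22 in the same way, reversing for T-C cell replicate 2. Signal over background limits all values of miRNAs near the blanks.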
